A study of Mus musculus with 6 samples.

Results

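Sox2 and its overlapping long noncoding RNA Sox2ot were examined together with the H3K27ac peaks around them in control mouse embryonic stem cells (mESCs). H3K27ac, acetylation of lysine 27 of histone H3, is found at active promoters and enhancers. Every control peak that overlapped the 200 kb on either side of the transcription start site (TSS) of Sox2 by at least 1 bp was taken, and peaks that reached into the stretch 80 to 130 kb downstream, where the distal control region of Sox2 lies, were counted apart. This gave 7 of the 22973 peaks in the list, of which 2 lay 80 to 130 kb downstream. Both genes were found in the annotation, and the windows around Sox2 were compared with the same windows around 27706 protein-coding and lincRNA genes.

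The study asked whether histone acetylation depends on ongoing transcription. H3K27ac was measured by chromatin immunoprecipitation and sequencing (ChIP-seq) in E14Tg2A mESCs, which all carried the Rosa26-Cre and Oct4-IRES-Puro alleles and were kept in serum-free medium with LIF, PD0325901 and CT-99021. The 6 samples were 2 Control replicates that received DMSO, 2 replicates with 100 nM NVP-2, an inhibitor of the elongation kinase CDK9, and 2 with 800 nM actinomycin D (ActD), which binds DNA and blocks RNA polymerases. Both drugs were given for 120 min, and chromatin of the human line HEK293T was added to every sample as a reference. The values below come from the authors' peak list of the Control cells, pooled over both replicates, which gives for each peak a chromosome, a start and an end in mm10. No height, score or replicate is attached to a peak, so no value below has a replicate error, no treated sample was compared, and all shares among genes or peaks are descriptions without a test.

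SOX2 is a transcription factor of the SoxB1 family that binds DNA with OCT4 (encoded by Pou5f1) at composite sites and holds mESCs in the pluripotent state. Its gene has no intron and lies inside an intron of Sox2ot, a noncoding gene read in the same direction. In mESCs Sox2 is controlled by enhancers next to the gene, among them the downstream element SRR2, and by a far downstream cluster known as the Sox2 control region, which contacts the promoter over a long distance. In neural progenitors, which also use Sox2, other enhancers take over.

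Sequences that match the composite site are shown first, and whether they belong to these enhancers was not tested. The search for the Oct4-Sox2 composite (TTGT, 1 base of any kind, then ATGCAAA, both strands, at most 1 mismatch in the fixed bases) found 2 matches under the 7 peaks. The 120 bases around each are printed 5′ to 3′ from the GRCm38 (mm10) genome, with the match in capitals. The first lay 3.65 kb downstream of the Sox2 TSS in peak 1, within an intron of Sox2ot, and the second lay 89.0 kb downstream in peak 4, outside every annotated gene.
Composite match of peak 1, chr3:34653997-34654116 (+): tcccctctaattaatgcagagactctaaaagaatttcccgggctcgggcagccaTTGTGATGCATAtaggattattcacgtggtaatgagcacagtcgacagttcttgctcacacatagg
Composite match of peak 4, chr3:34739313-34739432 (+): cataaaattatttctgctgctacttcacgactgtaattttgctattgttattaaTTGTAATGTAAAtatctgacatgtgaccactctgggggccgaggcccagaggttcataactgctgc
Counted from 1 at the 5′ end of the composite, the match of peak 1 differed from it by A11T and that of peak 4 by C9T. Neither match was complete.

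The promoter of Sox2 is shown as the 250 bases before its RefSeq start (RefSeq, GRCm38.p6). That start lies 410 bp before the TSS of the GENCODE model used for all distances here, and the whole stretch lay under peak 1.
Sox2 promoter, chr3:34649745-34649994 (+): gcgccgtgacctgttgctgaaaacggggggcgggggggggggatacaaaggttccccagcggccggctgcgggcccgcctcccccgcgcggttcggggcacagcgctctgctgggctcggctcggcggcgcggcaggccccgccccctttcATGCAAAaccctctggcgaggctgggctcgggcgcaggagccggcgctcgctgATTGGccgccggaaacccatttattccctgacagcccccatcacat
Its GC content was 72.0%. The first capitals, at positions −99 to −93 from the RefSeq start, are the octamer part of the composite, ATGCAAA. The second, at −46 to −42, are a CCAAT box read on the reverse strand. Of 32851 RefSeq promoters cut to the same length, 4.12% held the octamer part on either strand, 33.8% held a CCAAT box on either strand and 1.64% held both.

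The Sox2 gene (ENSMUSG00000074637.7, chr3:34650405-34652461 in mm10, plus strand) has 1 annotated isoform, and its promoter was marked, that is, a peak lay within 1 kb of the TSS. Of all 27706 genes, 41.7% had a marked promoter at the isoform with the longest span. Of the protein-coding genes alone, 51.2% had none. The peak over the TSS, peak 1 (chr3:34637304-34656996), was 19693 bp wide and ran from 13.1 kb before the TSS to 6.59 kb after it. The whole gene body lay under this peak. A promoter peak at least as wide was found at 462 genes, 1.67% of all genes and 3.99% of those with a marked promoter. Peak 1 also covered the small annotated genes Mir1897, RF01953, Gm42692 and Gm27611 and touched 3 of the 19 merged exons of Sox2ot.

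Peak 2 (chr3:34660314-34670631) followed after a gap of 3.32 kb. It was 10318 bp wide, lay 9.91 to 20.2 kb downstream of the TSS, and covered 1 exon of Sox2ot and the gene Gm42693. Peak 3 (chr3:34687788-34692816) stood alone, 17.2 kb beyond peak 2 and 41.4 kb before peak 4. It was 5029 bp wide, lay 37.4 to 42.4 kb from the TSS and overlapped no annotated gene. These peaks and the gene itself thus formed a proximal group, separated from the distal peaks by the widest gap between any neighbours among the 7.

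The distal group began 83.8 kb downstream. Peak 4 (chr3:34734240-34747919) was 13680 bp wide, ended at 97.5 kb and overlapped no annotated gene. Peak 5 (chr3:34749982-34778716) was the widest of the 7 with 28735 bp, from 99.6 to 128.3 kb, and 193 peaks of the list were wider (0.844% were at least as wide). It was wider than the peak over the Sox2 promoter itself. Peak 5 covered the start of the lincRNA gene Gm38509, which lies 121.67 kb downstream of the Sox2 TSS.

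Peaks 4 and 5 were separated by 2.06 kb, just over the 2 kb within which the authors merged neighbouring peaks, so they are listed as separate peaks by a margin of 62 bp. Peak 6 (chr3:34781136-34782075, 940 bp) began at 130.7 kb, just outside the 130 kb limit, and was narrower than 87.3% of the list. Peak 7 (chr3:34786160-34789166, 3007 bp) ended the group at 138.8 kb. The distal acetylated stretch therefore ran past the 80 to 130 kb window: from peak 4 to peak 7 it spanned 54.9 kb, of which 84.4% lay under peaks. When gaps of up to 5 kb were closed over the whole list, this stretch was matched or exceeded in length by 69 of 19881 stretches (0.347%, itself included), and the stretch of peaks 1 and 2 (33.3 kb) by 292 (1.47%).

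**Figure D1:**
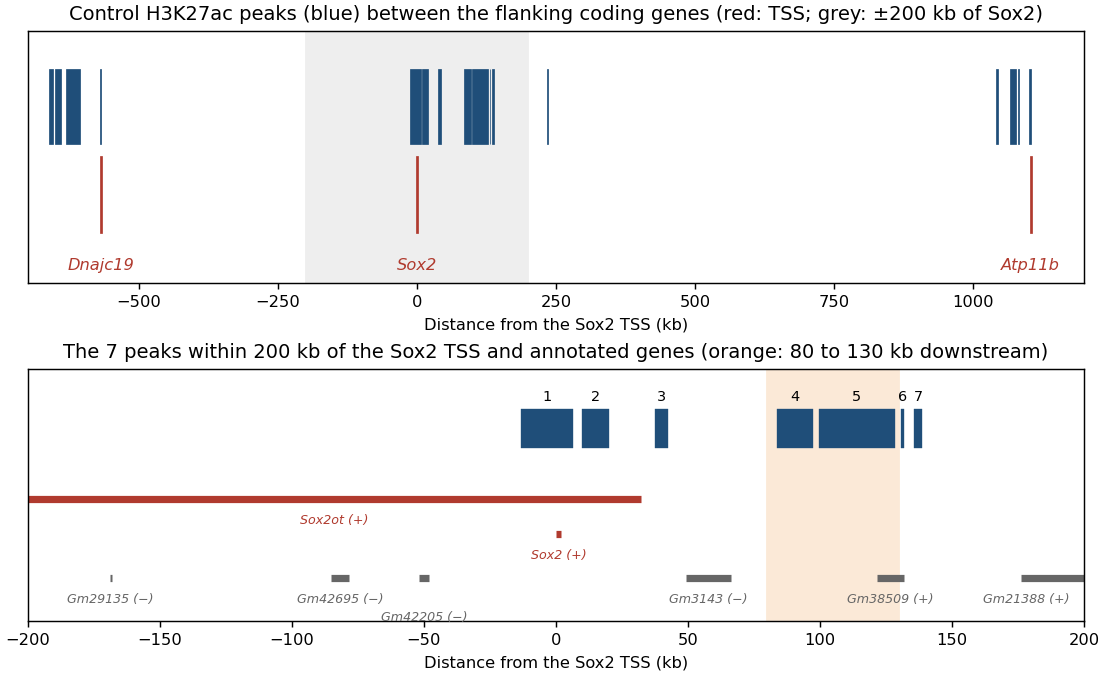
Control H3K27ac peaks by distance from the Sox2 TSS in kb. The upper panel shows all peaks (blue) between the coding genes Dnajc19 and Atp11b, with the TSSs in red and the 200 kb on either side of Sox2 in grey, and the lower panel shows the 7 numbered peaks above Sox2, Sox2ot and the annotated lincRNA genes with their strands. Peaks 4 and 5 fill most of the orange window 80 to 130 kb downstream, and no peak lies between Dnajc19 and peak 1.

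The 7 peaks were wide for this list. Their median width was 10318 bp against 2068 bp for all peaks, and 4 of the 7 (peaks 1, 2, 4 and 5) were at least 10 kb wide, against 7.51% of all peaks. The remaining widths ran from 940 to 5029 bp. Together the peaks covered 81.4 kb, 20.4% of the 400 kb window. Upstream of the TSS 13.1 kb were covered, all by peak 1, and downstream 68.3 kb (83.9% of the covered bases). The 80 to 130 kb window alone held 42.4 kb, which is 84.8% of that window and 52.1% of all covered bases around the gene.

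Outside these peaks the surroundings were sparsely marked. The gap upstream of peak 1 was 555 kb long, and 4.08% of the 22952 gaps between neighbouring peaks were as long or longer (median gap, 26.7 kb). Downstream, 95.2 kb without a peak separated peak 7 from a peak of 2322 bp at 234 kb, the first outside the 200 kb limit, after which 806 kb followed without any (2.59% of gaps as long or longer). The nearest other coding genes were Dnajc19, of the mitochondrial import machinery, with its TSS 569 kb upstream, and Atp11b, a phospholipid flippase, 1104 kb downstream. The promoters of both were marked. The distal group thus lay closest to Sox2 among coding genes, and peak 7 was 965 kb from the TSS of Atp11b.

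Peaks 4 and 5 were counted apart for their distance from Sox2. How far they lay from a coding TSS is thus a description that this choice favours. Of the 1726 peaks at least 10 kb wide, 49.7% lay over the TSS of a coding gene, and the median distance to the nearest coding TSS was 0.176 kb. Peak 4 lay 83.8 kb from its nearest coding TSS, that of Sox2. As far or farther lay 8.34% of the wide peaks and 13.7% of all peaks. Peak 5 lay 99.6 kb from the same TSS, a distance that 109 wide peaks (6.32%) and 11.4% of all peaks reached.

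Of the 15 annotated genes whose bodies overlapped the window, 7 had a peak within 1 kb of their 5′ end. The 41.7% of all genes compared covers only protein-coding and lincRNA genes at the longest isoform. Of the 15, 1 was protein-coding and 6 were lincRNA genes, so the shares are of unlike sets. The marked genes were Sox2, 5 small genes near it (RF01953, Mir1897, Gm42692, Gm27611 and Gm42693) and Gm38509 in the distal group. All but Gm38509 were marked by peak 1 or 2. Of the 6 lincRNA genes only Gm38509 was marked, a share near the 15.3% of all 5853 lincRNA genes. The starts of the other 5 lay from 17.6 kb (Gm3143) to 155 kb (Gm29135) away from the nearest peak, with Gm42695, Gm42205 and Gm21388 in between. The other unmarked genes were Gm43206, 5.16 kb from a peak, Gm27403, 77.0 kb from one, and Sox2ot. The list does not tell whether an unlisted start lacked acetylation or was removed by the authors' thresholds.

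Sox2ot (ENSMUSG00000105265.4, chr3:34104270-34682619, plus strand) spans 578 kb, and 30.0 kb of it (5.19%) lay under peaks. Its longest isoform, Sox2ot-203, starts 546 kb upstream of Sox2 and was not marked, with the nearest peak 22.6 kb away. Among its 18 annotated isoforms 7 had a marked start, 6 of them by peak 1 and 1 by peak 2, whereas 45.1% of the 67283 isoforms of protein-coding and lincRNA genes had one. Sox2ot itself is of another annotated type, processed transcript. The share of marked starts was thus close to the background, but the marked ones were not spread over the gene.

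The 18 starts fall into 7 groups when starts within 2 kb are joined, and isoforms of a group share their promoter, so they are not separate observations. No isoform was marked in the group of 3 at 546 kb upstream, the group of 2 at 454 kb upstream, the group of 5 at 90 kb upstream or the single start 60.5 kb upstream. Those 11 starts lay 22.4 to 115 kb from a peak. All 5 starts in the group 11.9 to 13.2 kb upstream were marked by peak 1, as was the start 5.63 kb downstream of the Sox2 TSS, and the start at 14.8 kb downstream was marked by peak 2. Marked starts were therefore found only among the 7 closest to Sox2, and 12 of the 19 merged exons lay upstream of peak 1. Sox2ot-206 was the only marked isoform whose TSS lay outside a peak, 135 bp before peak 1. A peak that covers both promoters does not say which of the genes was transcribed.

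**Figure D2:**
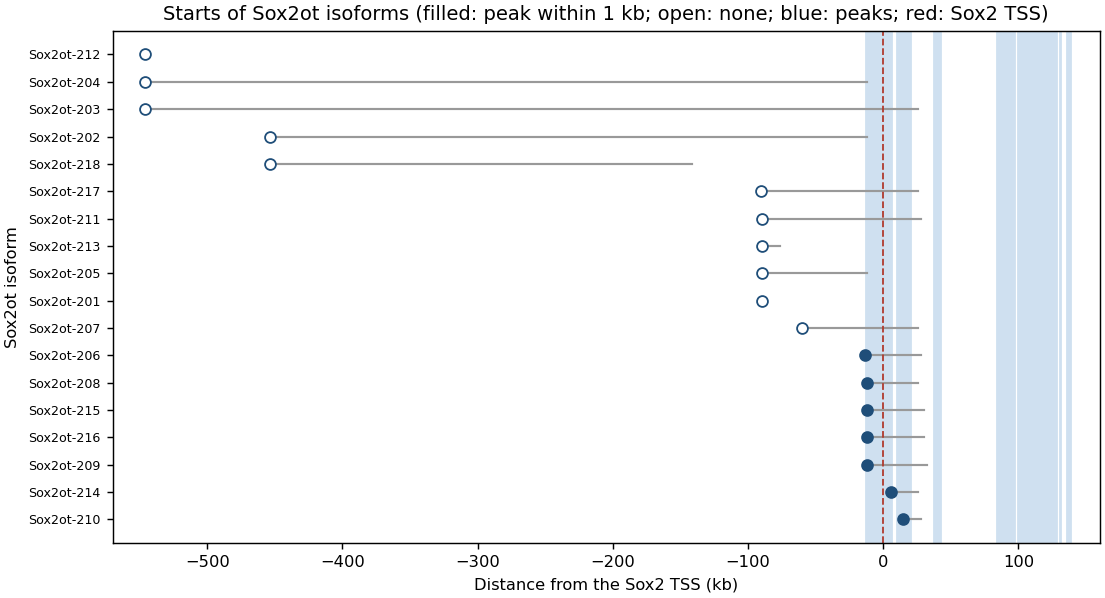
The 18 annotated Sox2ot isoforms by distance from the Sox2 TSS in kb, each a grey line from its start (circle) to its end. Filled circles have a peak within 1 kb and open circles have none, blue bands are the peaks and the dashed red line is the Sox2 TSS. The 7 filled circles lie between 13.2 kb upstream and 14.8 kb downstream.

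Around Sox2 the number of peaks was ordinary and their coverage was not. The gene had 7 peaks within 200 kb, against a median of 6, and 44.3% of all genes had as many or more. It had 81.4 kb under these peaks, against a median of 15.8 kb and a 90th percentile of 69.9 kb. At least as much was found at 1895 genes (6.84%, 95% Wilson interval 6.55 to 7.14%, counting error only). The interval treats genes as independent, although neighbours share peaks. By coverage, other settings gave from 6.19% (within 100 kb) to 13.6% (within 300 kb). Upstream its 13.1 kb were reached by 33.7% of genes, and downstream its 68.3 kb by 1.99%. Coverage was thus high mainly on the downstream side. A lopsided distribution was itself not rare, since among the 5148 genes with at least 50 kb under peaks 19.6% had 83.9% or more of it on 1 side, and the median larger side held 69.4%.

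The window 80 to 130 kb downstream was placed where the control region of Sox2 itself is known to lie, so the rank of Sox2 in it is a description that this choice favours. In this window 54.4% of genes had no base under a peak, the 90th percentile was 10.4 kb, and Sox2 had 42.4 kb. Only 51 genes (0.184%, Wilson interval 0.140 to 0.242%), Sox2 included, had as much there. By coverage, other settings gave from 0.202% (90 to 120 kb) to 0.419% (70 to 140 kb). Genes close to each other share peaks, and these 51 fell into 40 separate places when genes within 200 kb of each other were counted once. By number of peaks in that window, 2, Sox2 was matched or exceeded by 23.7% of genes.

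**Figure D3:**
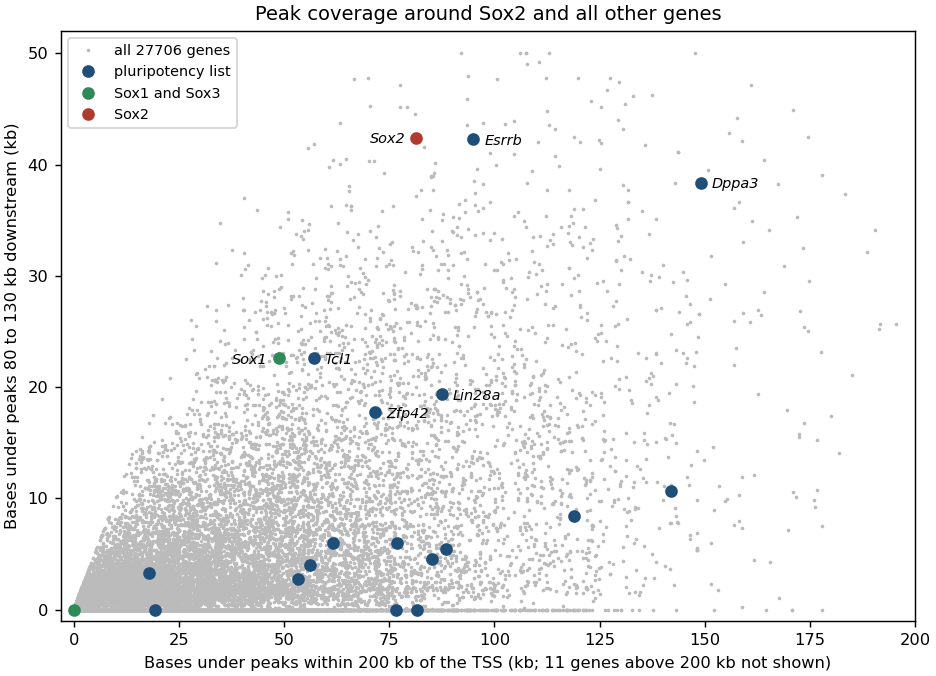
Bases under control peaks within 200 kb of the TSS (horizontal axis, kb) and 80 to 130 kb downstream (vertical axis, kb) for 27706 genes (grey), the 17 pluripotency genes (blue), Sox1 and Sox3 (green) and Sox2 (red). Sox2 lies at 81.4 and 42.4 kb, beside Esrrb at 95.03 and 42.3 kb, and 11 genes above 200 kb on the horizontal axis are not shown.

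Other genes of the pluripotency network were compared as a list of 17. The promoters of 12 were marked, against 41.7% of all genes. All 17 are protein-coding, and 51.2% of protein-coding genes had no marked promoter. The promoters of Klf4, Esrrb, Sall4, Nr5a2 and Dppa3 were not marked at the longest isoform. The median coverage of the 17 within 200 kb was 76.8 kb, close to that of Sox2, and 8 of the 17 had more than Sox2. Of all genes 6.84%, and of those with a marked promoter 11.97%, had at least as much as Sox2. Nanog, a homeodomain factor, had 142 kb under 18 peaks and Klf2, a zinc finger factor, 119 kb. Dppa3, a maternal factor that lies on the same chromosome near Nanog and shares peaks with it, had 149 kb. Pou5f1, the partner of Sox2, had 76.8 kb under 15 peaks. High coverage within 200 kb was therefore common on this list.

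The same window, placed on the control region of Sox2, was read for the list. The median of the 17 in the window 80 to 130 kb downstream was 5.995 kb, against 0 for all genes, and 6 of the 17 exceeded the 90th percentile of all genes (10.4 kb). None had more bases there than Sox2, for which the window was chosen. The orphan nuclear receptor gene Esrrb came closest with 42.3 kb, followed by Dppa3 with 38.4 kb and Tcl1, a cofactor of the kinase AKT, with 22.6 kb. The window of Esrrb was counted from a start that was not marked. The peaks in the window of Dppa3 are also peaks of its neighbour Nanog, among them that over the Nanog promoter. Pou5f1 had 6.02 kb there and Nanog 10.6 kb, while Tfcp2l1, Tbx3 and Nr5a2 had none. Several genes had a wide peak over the promoter, and 9 of the 17 had a wider promoter peak than Sox2. Of all genes 1.67%, and of those with a marked promoter 3.99%, had one at least as wide as that of Sox2. The promoter peak of Klf5 was 79196 bp wide, that of Tfcp2l1 71785 bp and that of Klf2 50763 bp.

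Of the other SoxB1 genes, Sox1 shared with Sox2 a marked promoter and coverage mainly downstream, though less of it, and Sox3 shared neither. Sox1, a gene of early neural cells, had 9 peaks and 48.8 kb under peaks within 200 kb, 98.9% of it downstream and 22.6 kb of it 80 to 130 kb downstream. Its promoter was marked by a peak of 3136 bp. Sox3, on the X chromosome, had no peak within 200 kb.

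**Figure D4:**
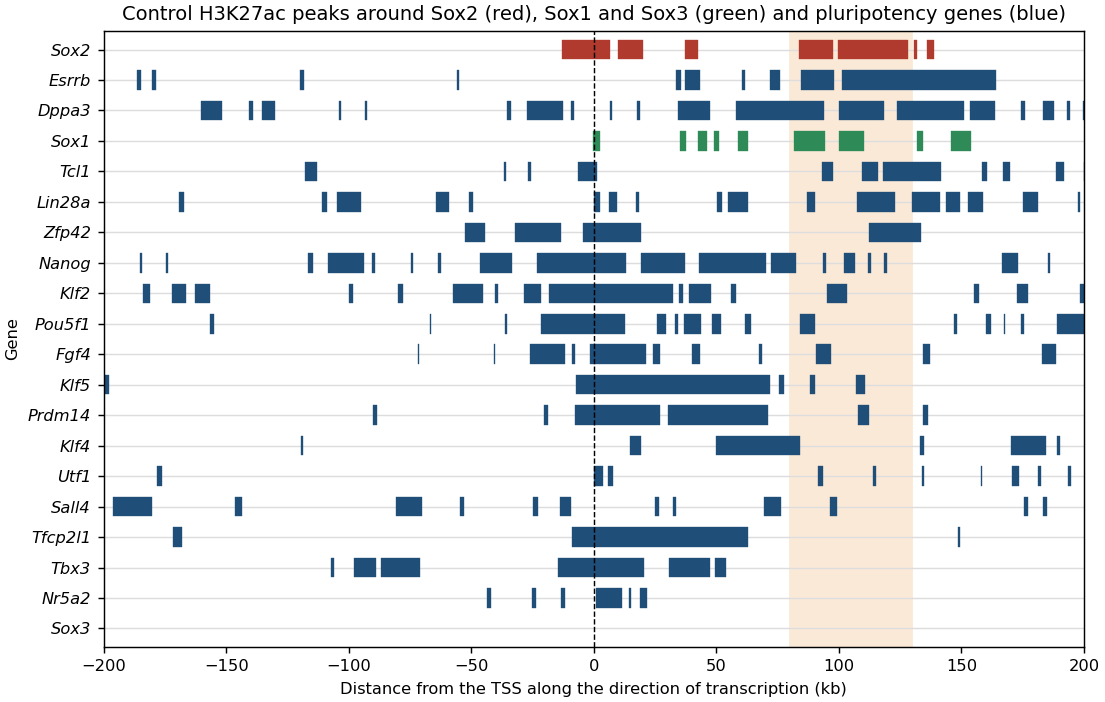
Control H3K27ac peaks (bars) within 200 kb of the TSS of Sox2 (red), Sox1 and Sox3 (green) and 17 pluripotency genes (blue), along the direction of transcription in kb and, after Sox2, ordered by coverage in the orange window 80 to 130 kb downstream. Sox2, Esrrb and Dppa3 fill most of that window, Klf5 and Tfcp2l1 hold a wide peak over the TSS, and Sox3 has none. The peaks of Dppa3 in the window also lie around Nanog.

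The genes whose peak layout was most like that of Sox2 were sought among 20854 protein-coding genes on other chromosomes, with the Jaccard index over 80 bins of 5 kb, of which 22 were under a peak at Sox2. The index was 0.679 for Phf1, a Polycomb-associated protein, 0.621 for Mcts2, 0.593 for Sgo1, which protects cohesion at centromeres, and 0.571 each for Moap1 and the iodide transporter gene Slc5a5. The median over all genes was 0.102 and the 99th percentile 0.417. Among these 5 genes the coverage 80 to 130 kb downstream ran from 8.97 to 34.6 kb, below that of Sox2.

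Promoter marking was read for markers of the labelled cell type and of other cells, beside the 41.7% of all genes that were marked. Among protein-coding genes alone 51.2% had no marked promoter. Of 8 stem cell genes, 6 had a marked promoter (Pou5f1, Nanog, Sox2, Zfp42, Tfcp2l1 and Prdm14), and none of 4 fibroblast genes had one. Sox2 is the gene studied here, and its mark was already reported above. Of 4 endoderm genes Gata4 and Gata6 were marked, and of 4 neural progenitor genes Sox1 and Nes, both shares near that of all genes. The part of other cells in the peaks around Sox2 was not tested.

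In CpG and repeat content the wide proximal peaks 1 and 2 differed from the wide distal peaks 4 and 5, whereas the narrower peaks did not follow that split. GC content did not separate these pairs, with 46.2% and 48.2% in peaks 1 and 2 and 45.2% and 46.4% in peaks 4 and 5. The GC content of the 7 peaks ran from 44.9% to 49.7%, at or below the median of 49.5% for all peaks except in peak 6. Peak 1 had 3.02 CpG dinucleotides per 100 bp and peak 2 had 2.68, while peak 4 had 0.892 and peak 5 had 1.17, against a median of 1.37 for all peaks at least 10 kb wide. Peaks 1 and 2 were thus rich in CpG for their width, with 97.3% and 95.5% of wide peaks at or below them, and peaks 4 and 5 lay below the median. Repeats, as masked in the genome, made up 16.1% of peak 1 and 12.9% of peak 2, 48.5% of peak 4 and 36.8% of peak 5 (median of wide peaks, 26.5%). Only 2.38% of the wide peaks held as large a share of repeats as peak 4. Among the narrower peaks, peak 3 of the proximal group had 37.5% repeats and 1.65 CpG per 100 bp, and peaks 6 and 7 of the distal group had 14.7% and 16.9% repeats with 1.70 and 0.831 CpG per 100 bp. The proximal and distal groups as wholes therefore overlapped in GC content, CpG and repeats. How repeats affected the mapping of reads there was not tested.

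Motifs of factors that act in mESCs were searched in the 7 peaks on both strands. They were the composite above, the octamer ATGCAAAT bound by OCT4, TCAAGGTCA bound by ESRRB, GGGNGTGG bound by Klf factors and TTCCNGGAA bound by STAT3, without mismatch, and the CTCF motif CCA, 2 bases of any kind, AGGGGGC with at most 1 mismatch. No matches of different motifs overlapped in the 7 peaks. The composite and the octamer share the letters ATGCAAA. A match describes the letters of the sequence and does not show that a factor was bound.

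Peak 5 held more ESRRB and Klf matches than any other of the 7 peaks. Over the 7 peaks together there were 6 ESRRB matches, or 0.737 per 10 kb, against 0.450 per 10 kb over all peaks. Peak 5, singled out after its values were seen, had 4 of them, or 1.39 per 10 kb. Their sequences are shown since they cluster in the widest peak of the region. They are printed from the minus strand, 60 bases each, with the match in capitals and named by the distance from the Sox2 TSS.
Esrrb match at 106 kb, chr3:34756560-34756619 (-): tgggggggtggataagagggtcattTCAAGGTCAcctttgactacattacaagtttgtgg
Esrrb match at 108 kb, chr3:34757934-34757993 (-): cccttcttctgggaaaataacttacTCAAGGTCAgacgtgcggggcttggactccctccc
Esrrb match at 110 kb, chr3:34760548-34760607 (-): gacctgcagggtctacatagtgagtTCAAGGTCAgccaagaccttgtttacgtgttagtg
Esrrb match at 126 kb, chr3:34776594-34776653 (-): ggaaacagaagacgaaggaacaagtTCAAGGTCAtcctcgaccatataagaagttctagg
The first 3 lay within 4 kb of each other, 106.2 to 110.2 kb downstream, outside annotated genes, and the last lay within Gm38509 without touching an exon. Of all 300-base windows under peaks 1.31% held this motif, and 55.3% of the wide peaks held at least 1 match.

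Klf matches numbered 53 in the 7 peaks, 26 of them in peak 5. The rate was 6.51 per 10 kb over the 7 peaks and 9.05 in peak 5, against 5.38 over all peaks, and 13.3% of 300-base windows held the motif. These rates count each of several overlapping matches. In peak 5 a short run of 5 matches partly overlapped, and with overlapping matches joined peak 5 held 23 of 50. The composite had 0.246 matches per 10 kb in the 7 peaks and 0.292 in all peaks. It occurred in 0.830% of windows and in 35.1% of wide peaks. Peak 5 held no composite and no octamer match. The 2 octamer matches lay in peaks 1 and 2, 5.89 and 17.9 kb downstream of the TSS, a rate of 0.246 per 10 kb against 0.565 in all peaks (1.61% of windows).

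STAT3 matches numbered 3, of which 2 lay in peak 1 and 1 in peak 4. Their rate of 0.369 per 10 kb was close to the 0.373 of all peaks (1.09% of windows). The match at 3.77 kb lay beside the composite match of peak 1, and that at 94.9 kb lay less than 1 kb from the ESRRB match of peak 4. CTCF matches numbered 12 over peaks 1 to 5, at 1.47 per 10 kb against 1.33 (3.80% of windows). Of these, 4 lay in peak 1, 2 of them without mismatch, and 2 in each of the next 4 peaks. Peak 6 held no match of any of these motifs.

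**Figure D5:**
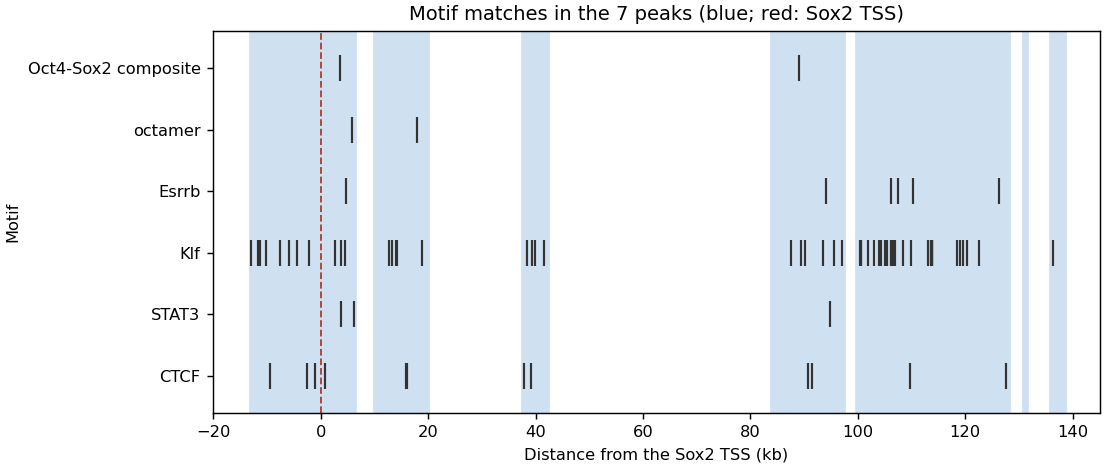
Positions of the motif matches (vertical ticks) in the 7 control peaks (blue bands) by distance from the Sox2 TSS in kb (dashed red line). Peak 5, 99.6 to 128.3 kb downstream, holds 26 of 53 Klf matches and 4 of 6 Esrrb matches, and the 2 composite matches lie at 3.65 and 89.0 kb.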

How the data were processed

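The deposited file holds positions in base pairs, 1 line per peak, which the authors made from the Control samples. Per their methods and processing notes, reads were trimmed with cutadapt, aligned with BWA to mouse mm10 and a human genome together, cleaned with Picard 2.9.1 and SAMtools 1.4, and peaks were called with LanceOtron, merged within 2 kb, and filtered on height and on distance to ATAC-seq summits. The list carries no read numbers, and those that the study gives for the Control libraries were not used here. Merging sets where 1 peak ends and the next begins, so widths and counts depend on it.

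Peak positions were compared with GENCODE M21 and the GRCm38.p6 sequence, which share the build of the file. No peak passed a chromosome end. Starts, counted from 0 in the file, were raised by 1. Each gene was represented by its longest-span isoform, promoters by 1 kb on each side of the TSS, and an overlap of 1 bp counted. Wilson intervals (95%) cover counting error only and treat genes as independent, although neighbours share peaks. No test was run. The functions were tested on simulated data. Python 3.11.15, numpy 2.4.6, scipy 1.17.1 and matplotlib 3.10.9 were used.

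Genes were named by rule: Sox2, Sox2ot, all genes within 200 kb, the flanking coding genes, Sox1, Sox3, 17 pluripotency genes, the 5 genes with the most similar layout, and marked genes of the lists of stem cell, fibroblast, endoderm and neural progenitor markers. The members and lists were chosen with earlier results of these data known. The ESRRB sequences, the CCAAT and octamer letters of the promoter, the start groups of Sox2ot, the joined stretches and the comparison with peaks of 10 kb or more were chosen after their values were seen. Sequence after the RefSeq start is not printed. The alternatives changed windows, peak filters, joining, gene sets, isoforms and motif mismatches. The authors' tables of change after treatment and the treated samples were not used here.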

Additional observations from a re-analysis of the deposited data

How the results depend on the processing

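With gaps joined up to 5 kb, and up to a longer distance, the 7 peaks became 3 and the 2 distal peaks became 1, by construction. A distal window of 70 to 140 kb held 4 peaks. Within 100 kb of the TSS 49.1 kb lay under peaks. The share of genes with at least the coverage of Sox2 within 200 kb (6.84%) became 44.3% by number of peaks, 7.68% among protein-coding genes, 11.97% among genes with a marked promoter, 6.19% within 100 kb, 13.6% within 300 kb and 11.2% without the peak over each TSS. The share for 80 to 130 kb downstream (0.184%) became 23.7% by number of peaks, 0.268% among genes with a marked promoter, 0.419% for 70 to 140 kb and 0.346% for the larger of both sides. With any isoform, 2 of the 2 members were marked. Composite matches numbered 0 without a mismatch, 23 with 2 mismatches and 16 in the whole window. The GC content of the peaks, 46.3%, was 43.4% in their central 1 kb. The other 15 of 36 comparisons stayed within 1.5 times for counts and lengths, or within the Wilson interval for shares. No paired analysis was possible because the list is pooled over both replicates and holds no treated sample, and for the same reason no replicate could be left out. An unlisted promoter cannot be told from one below the authors' thresholds.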
